A study of Mus musculus with 3 samples.

Results

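Hematopoietic stem cells (HSCs) of 1 preparation were compared by how many of their ATAC reads came from mitochondrial DNA (mtDNA), the highest quintile (1 of 5 equal groups) of cells against the lowest. The preparation held long-term HSCs sorted as Lin- Sca-1+ c-Kit+ CD48- CD150+ CD34- from c-Kit-enriched marrow of wild-type C57BL/6J mice aged 8 weeks, and the sex and number of the mice could not be found in the sources. Cells were permeabilised with digitonin and profiled by DOGMA-seq, which reads RNA, open chromatin (ATAC) and antibody tags from the same cell. It gave 1 ATAC, 1 RNA and 1 antibody-tag library, of which the ATAC and RNA libraries were used. Of 3757 called cells among 605049 barcodes, 3108 had more than 3000 ATAC fragments in peaks and were ranked. Their mitochondrial share was the number of mitochondrial read pairs over all raw ATAC read pairs of the cell. The 5 groups held 622, 622, 621, 622 and 621 cells from the lowest to the highest share. Because all cells came from 1 preparation, cells are not replicates and no difference below has a test. Medians and quartiles describe the spread over cells, and all 95% intervals (exact Poisson, exact binomial or exact conditional) cover counting error only.

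Each cell carries many copies of the circular mtDNA, which lacks nucleosomes, so that the transposase used in ATAC can cut it wherever mitochondria are left in the permeabilised cell. The share of mitochondrial reads therefore joins how much mtDNA a cell holds with how far the treatment lets the enzyme in, and these cannot be told apart here. Over evolution, pieces of mtDNA were also copied into the nuclear chromosomes, and reads of a young copy and of mtDNA itself can be hard to separate. In bone marrow, HSCs are known for relying on glycolysis while at rest and for clearing damaged mitochondria by mitophagy.

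The cells of both outer groups were chosen by their mitochondrial share, which spanned several orders of magnitude. It ran from 0% to 0.0197% in the lowest quintile, where 237 cells of the 3108 had no mitochondrial read pair, and from 0.754% to 29.3% in the highest. Group medians were 0.002%, 0.073%, 0.231%, 0.494% and 1.42%. At the lower limit, the last cell inside had 0.0197% and the first cell outside 0.0198%, and at the upper limit the first cell inside had 0.7543% and the last cell outside 0.7538%, so that the limits did not fall in a gap. The highest quintile held 2398456 mitochondrial read pairs, 88.5% of all those in the ranked cells, against 1499 in the lowest. The upper end was uneven. There were 463 cells with a share over 0.5% and at most 1%, 164 up to 1.5%, 56 up to 2% and 19 up to 3%, but then 22 up to 5%, 70 up to 10%, 61 up to 15%, 47 up to 20% and 19 beyond. The 621 cells of the highest quintile were therefore also described apart as 402 cells of at most 3% (median 1.082%) and 219 cells over 3% (median 11.2%), a division made after the shares were seen.

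**Figure D1:**
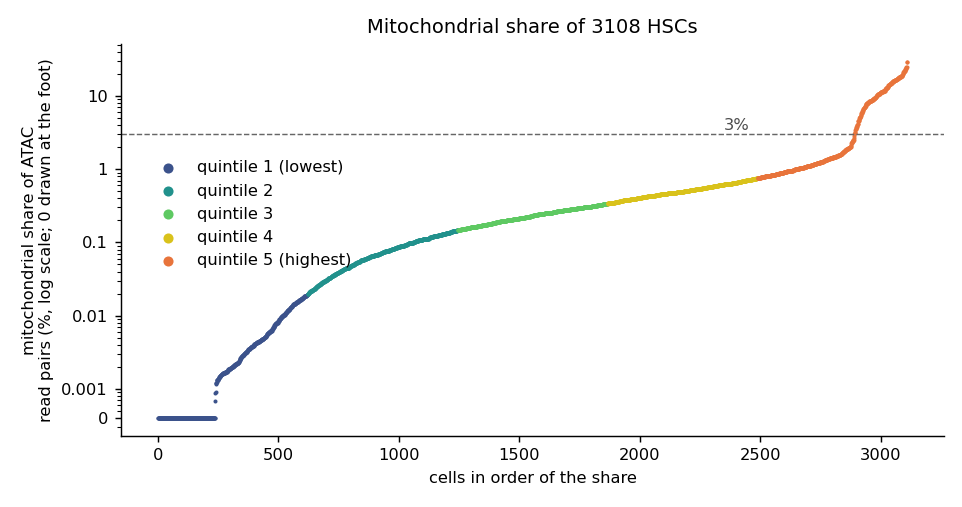
Each point is 1 of 3108 HSCs, placed by the rank of its mitochondrial share (x axis) and by the share of ATAC read pairs in percent on a log scale (y axis, with 0 drawn at the foot), and colored by quintile. The curve climbs slowly through the middle quintiles and steeply above the dashed line at 3%, where 219 cells lie.

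The RNA of the same cells differed between the outer groups by less than the spread over cells. The median number of RNA UMIs (unique molecules) per cell was 3544.5 in the lowest quintile, 3876, 3963 and 4005 in the middle quintiles, and 3905 in the highest. The quartiles of the lowest quintile, 2934 to 4268 UMIs, overlapped those of the highest, 3149 to 4764, and the ratio of the 2 medians was 1.10. The highest quintile did not move as 1 group. Its 402 cells of at most 3% had a median of 4143.5 UMIs, above every other group, whereas the 219 cells over 3% had 3364, below the lowest quintile. Within the 219 cells, Spearman's rho between share and UMIs was -0.29, against 0.10 over all 3108 cells. These are descriptions across cells that share 1 library.

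The number of genes with RNA followed the UMIs. The medians were 1903.5, 2017, 2045, 2083 and 2039 genes from the lowest to the highest quintile, with 2121.5 in the cells of at most 3% and 1868 in those over 3%. Among cells with 3500 to 4500 UMIs, the medians were 2066 genes in 209 cells of the lowest quintile and 2065 genes in 207 cells of the highest. The cells over 3% had 2088 genes at that depth. At like depth the outer groups thus differed by 1 gene in the median, while the quartiles of the lowest quintile were 1975 and 2151 genes. The share of UMIs from introns, which come mostly from unspliced transcripts, had medians of 48.9% in the lowest and 47.9% in the highest quintile, and of 48.2% in cells over 3%.

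ATAC depth was higher in the cells with more mitochondrial reads. Median fragments per cell were 10600, 11578, 11262, 11804.5 and 12105, a ratio of 1.14 between the outer groups, with 11930.5 in the cells of at most 3% and 12445 in those over 3%. When quintiles were made within deciles of raw read pairs per cell, this ratio was 0.965, so that its direction changed. Raw read pairs include the mitochondrial ones, so at equal raw depth a cell with a high share has fewer nuclear read pairs by construction. The form of the chromatin signal changed little. The median share of fragments in peaks was 71.0% in the lowest and 70.4% in the highest quintile (69.7% in cells of at most 3% and 71.8% in cells over 3%). The share at gene starts was 52.5% and 52.1%. The nucleosome signal, the ratio of fragments long enough to span 1 nucleosome to shorter ones, was 0.695 and 0.700. Places where more than 2 fragments of 1 cell overlapped, which a diploid nucleus should rarely give, stood at 44.99 and 45.5 per 10000 fragments.

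A set of 3 further read measures moved with the share mainly in the cells over 3%. Duplicates and reads of low mapping quality are given as a percent of raw read pairs less the mitochondrial ones, because raw read pairs are also the denominator of the share itself. The 2 measures therefore still share reads with the rule and are not independent of it. They are also parts of the same read pairs, so that 1 can fall as the other rises. Whether some read pairs of low mapping quality came from mtDNA was not tested. Duplicates had medians of 71.0%, 70.9%, 70.7% and 70.6% in quintiles 1 to 4, 70.3% in cells of at most 3% and 65.6% in cells over 3%. Read pairs of low mapping quality had medians of 6.12%, 6.28%, 6.37% and 6.57%, then 7.00% and 13.04%. In the cells over 3% the quartiles of this last measure, 11.1% and 15.7%, lay above the upper quartile of every other group. Within these 219 cells, rho with the share was 0.89 for low mapping quality and -0.80 for duplicates.

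Intergenic RNA reads, which belong to the other library and were not used by the rule, had a median of 17.1% of mapped reads in the lowest quintile, 17.1%, 17.3% and 17.4% in the middle ones and 17.5% in the 402 cells of at most 3%. In the 219 cells over 3% the median was 13.1%, with quartiles of 8.61% and 15.5%. Under 10% of reads were intergenic in 66 of the 219 cells (30.1%, interval 24.1 to 36.7), in 3 of the 402 cells and in 6 of the 2487 cells of the other quintiles. The 66 cells also had a higher mitochondrial share (median 17.7%) than the remaining 153 cells over 3% (9.14%), fewer UMIs (2885.5 against 3633) and more fragments in peaks (74.2% against 70.6%). The limit of 10% was not planned in advance. Whether RNA quality, cell state or the treatment of the cell played a part was not tested.

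**Figure D2:**
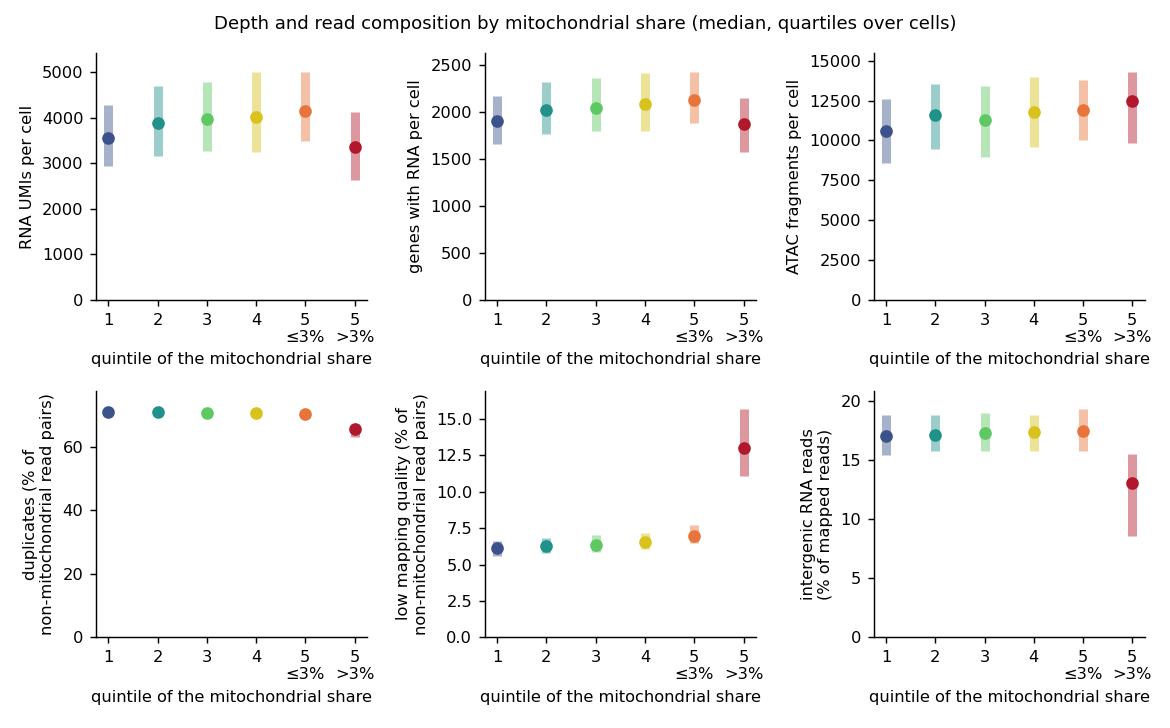
Medians (points) and quartiles (bars) over cells are plotted for 6 measures, by quintile of the mitochondrial share with the highest quintile divided at 3%. The upper row holds RNA UMIs, genes with RNA and ATAC fragments per cell. The lower row holds duplicates, read pairs of low mapping quality and intergenic RNA reads (percent of mapped reads). Duplicates and low mapping quality are in percent of read pairs not counted as mitochondrial. The cells over 3% stand apart in the lower row, with medians of 65.6%, 13.04% and 13.1%, and have the fewest UMIs, 3364.

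Nuclear copies of mtDNA differed strongly in fragments between the outer groups. An alignment of the GRCm38 mitochondrial chromosome (chrM, 16299 bases) to the nuclear genome found 135 matches, of which 2 reached 97% identity over at least 1000 bases. The first, at chr1:24611535-24616188 on the minus strand, matches chrM 6390 to 11042 at 99.936% identity, with 2 mismatches and 1 gap over 4654 aligned positions, and so covers 28.5% of the mitochondrial genome, from mt-Co1 to mt-Nd4. It is annotated as a row of unprocessed pseudogenes, among them Gm10925 and Gm28437. The second, at chr2:22587288-22590534 on the minus strand, matches chrM 4441 to 7699 at 97.362% identity with 72 mismatches. It lies in an intron of Myo3a, which runs on the plus strand at chr2:22227503-22618252, and carries the pseudogenes Gm13339, Gm13340 and Gm13341. Nearly all fragments on each copy lay over 1 short stretch in which copy and chrM differ, and these stretches are shown with the base that 1 sequence holds and the other lacks in capitals (within a run of A the placing of the capital is arbitrary). The copies were read on their minus strand from chr1:24612693-24612814 and chr2:22589727-22589847, next to chrM 9764 to 9884 and chrM 5128 to 5248.
Copy on chromosome 1: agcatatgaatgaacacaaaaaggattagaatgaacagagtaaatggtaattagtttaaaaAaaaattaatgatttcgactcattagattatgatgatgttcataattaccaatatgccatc
chrM at that copy: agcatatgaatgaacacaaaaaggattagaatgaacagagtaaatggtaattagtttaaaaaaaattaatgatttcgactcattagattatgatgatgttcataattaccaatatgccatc
Copy on chromosome 2: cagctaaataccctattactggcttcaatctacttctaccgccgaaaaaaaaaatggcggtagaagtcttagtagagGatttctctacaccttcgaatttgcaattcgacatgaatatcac
chrM at that copy: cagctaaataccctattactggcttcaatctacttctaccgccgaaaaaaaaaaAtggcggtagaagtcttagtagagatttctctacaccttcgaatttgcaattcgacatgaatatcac

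On the chromosome 1 copy, the 5 groups had 0, 0, 4, 6 and 76 fragments from the lowest to the highest quintile, and 68 of the 76 came from the cells over 3%. On the chromosome 2 copy they had 0, 1, 3, 9 and 176 fragments, 150 of them from the cells over 3%. As fragments per 1000000 nuclear fragments (CPM), the highest quintile had 9.62 on chromosome 1 (interval 7.58 to 12.04) and 22.3 on chromosome 2 (19.1 to 25.8). With no fragment in the 6682991 nuclear fragments of the lowest quintile, a count of 0 allows up to 0.449 CPM there, taking 3 counts over the group as the floor. Against this floor the highest quintile was at least 21.4-fold higher on chromosome 1 and at least 49.6-fold higher on chromosome 2. Cells over 3% exceeded the other cells of the highest quintile by 14.0-fold (6.73 to 33.8) and 9.52-fold (6.25 to 15.04). The 5000 bp to either side of each copy held between 0 and 4 fragments in each of the 5 groups.

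The other nuclear matches to chrM, which were shorter or less alike, did not move in this way as a whole. Together they had 20.1 CPM in the lowest quintile, 14.2, 15.8 and 17.1 in the middle quintiles and 19.2 in the highest, and the interval of the highest, 16.3 to 22.6, contained the value of the lowest. Single matches differed. A match at chr14:37135634-37136082 (79.221% identity) had 24, 14, 21, 18 and 20 fragments. A match of 365 bases at chr12:97061428-97061792 (99.726% identity) had 1, 0, 1, 0 and 6, and one at chr9:15319139-15320013 (75.415%) had 1, 0, 3, 0 and 10, all named after their values were seen. Set against mitochondrial read pairs, the fragments on both copies came to 34.6, 81.7, 76.1 and 105 per 1000000 in the second to the highest quintile. Intervals were wide in the lower ones (0.877 to 193 in the second and 92.5 to 119 in the highest). The lowest quintile had 1499 mitochondrial read pairs, so that its 0 fragments allowed up to 2461 on this scale. Cells of at most 3% had 114 (78.8 to 159) and cells over 3% had 104 (90.5 to 119). A fragment on either copy was found in 0 of 622 cells of the lowest quintile, in 1, 7 and 15 cells of the middle quintiles, in 32 of 402 cells of at most 3% (7.96%, interval 5.51 to 11.1) and in 125 of 219 cells over 3% (57.1%, 50.2 to 63.7). No cell held more than 6.

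All 86 fragments on the chromosome 1 copy covered a single place, a run of A at chrM 9821 to 9828 in the tRNA gene mt-Tr that has 8 A in chrM and 9 in the copy. None covered A6393T in mt-Co1, and 1 covered T9461C in mt-Nd3, the remaining differences between chrM and this copy (chrM base first, positions counted on chrM). On the chromosome 2 copy, 182 of 189 fragments covered a run of A at chrM 5172 to 5182, with 11 A in chrM and 10 in the copy, together with a G at chrM 5205 in mt-Tc that the copy has doubled. The A run lies in the 32 bases between mt-Tn and mt-Tc, chrM 5160 to 5191, where replication of the mitochondrial light strand is known to start. The other 7 fragments lay elsewhere among the 86 differing positions of this copy. The median fragment was 113 bp long on chromosome 1 and 128 bp on chromosome 2. The files give fragment positions without their bases. Whether a fragment came from the nuclear copy or from an mtDNA molecule that differs from the reference in these runs, or was misread there, cannot be told apart.

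**Figure D3:**
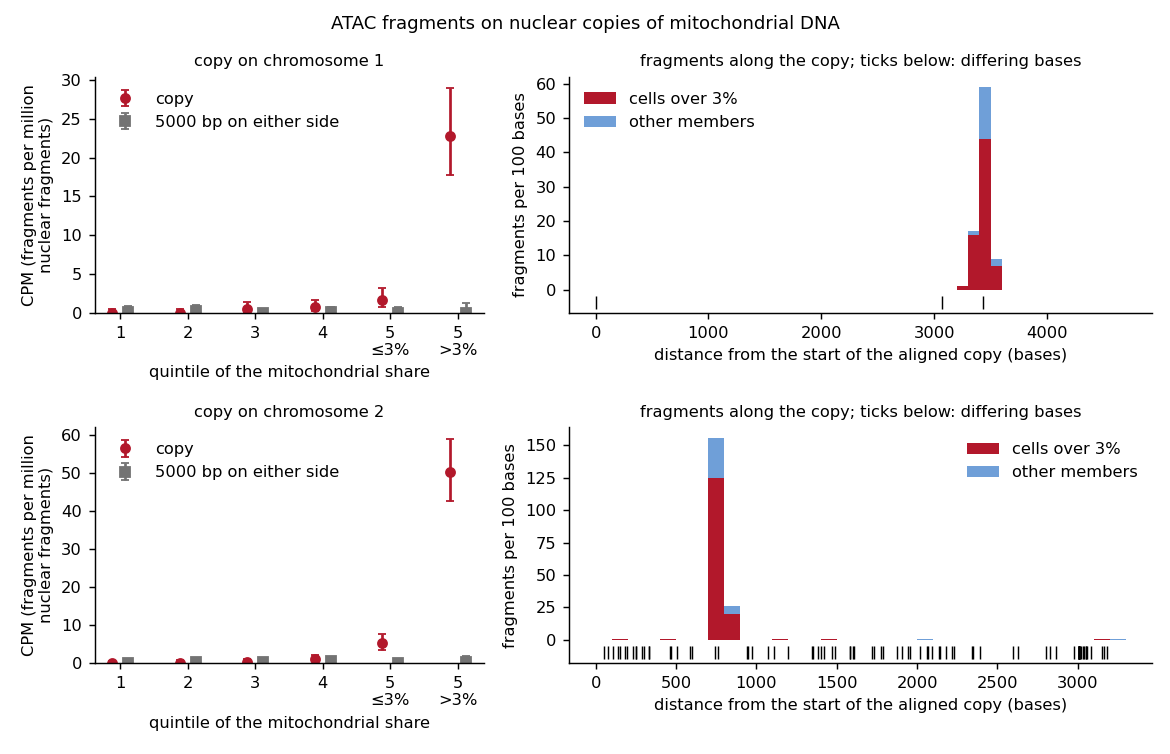
Left panels give CPM with exact 95% Poisson intervals on each copy (red) and on the 5000 bp to either side (grey), by quintile of the mitochondrial share with the highest quintile divided at 3%. Right panels stack the fragments of all 3108 cells along each copy by 100 bases from its start, in cells over 3% (red) and other cells (blue), with ticks at bases that differ from chrM. The cells over 3% reach 22.8 and 50.3 CPM, and the fragments pile up at 1 place on each copy.

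Across nuclear genes, open chromatin of the outer groups differed little in most genes. Levels are fragments over each protein-coding gene and 2000 bp upstream, divided by all nuclear fragments of the group, 6682991 in the lowest quintile and 7900287 in the highest. Of 11702 genes with at least 300 fragments in both groups together, 195 (1.67%) were higher in the highest quintile by at least 25%, and 139 (1.19%) were lower by at least 20%, which is the same fold downward. Which direction held more genes depended on the setting. Lower genes led at gene starts (92 higher and 139 lower), within depth deciles (120 and 168) and with thinned cells (43 and 59). They also led between the outer deciles of the share (152 and 227) and in cells over 3% (184 and 321). Higher genes led with levels centred on the median gene (242 higher and 113 lower) and in cells of at most 3% (192 and 167). They also led without the deepest cell (184 and 123), at a lower minimum of fragments (687 and 442) and at a higher one (8 and 2). The median log2 difference was -0.02 with quartiles of -0.10 and 0.07. Genes past the fold had fewer fragments (median 412 in both directions) than all genes tested (771). With every cell thinned to 3000 nuclear fragments, 109 of the 195 and 80 of the 139 were still past the fold, when no minimum is asked of the thinned counts.

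Among genes that passed the minimum, the 5 highest are known from the nervous system and the ear, and in 4 of them 1 cell gave much of the difference. All 5 are long, from Myo3a (chr2:22227503-22618252) to Lrrc4c (chr2:96318169-97631666), and Grm7 and Lrrc4c had 0 fragments at their starts in the highest quintile. Pooled fragments far from genes made up 53.6 per 10000 in the lowest and 73.6 in the highest quintile. Whether such diffuse signal played a part in these genes was not tested. Grin2a, a subunit of the NMDA glutamate receptor, had 64, 88, 76, 75 and 270 fragments from the lowest to the highest quintile (log2 difference 1.84, interval 1.44 to 2.25), but 152 of the 270 came from 1 cell and the difference without that cell was 0.68. It was -0.0175 with quintiles made within deciles of raw read pairs. Grm7, a metabotropic glutamate receptor, had 90, 168, 171, 181 and 322 fragments (1.60, 1.05 without the same cell, which gave 107, and 0.27 within depth deciles). In CPM the lowest quintile was below each middle quintile in Grm7 and in the other 4 of the 5 genes. Reln, the secreted protein reelin, had 121 fragments in the lowest and 346 in the highest quintile, the middle quintiles lying between them (1.27, 0.32 without that cell and -0.00263 within depth deciles). Lrrc4c, a ligand of netrin-G1, had 116, 176, 212, 169 and 292 fragments (1.09, 0.50 without it and -0.28 within depth deciles). The cell was the deepest of all, with 194399 ATAC fragments against 66654 in the next, 52809 UMIs, 8677 genes and a share of 3.17%, and it gave 2.46% of the nuclear fragments of the highest quintile. Only 40.4% of its fragments lay in peaks, and 419 places per 10000 fragments had more than 2 overlapping fragments. Whether it was a single cell was not tested. Without it, 12 of the 195 higher genes, Grin2a and Reln among them, no longer reached the minimum of 300 fragments. In all 184 genes were higher and 123 lower, of which 156 and 114 were also past the fold with it.

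Myo3a, an unconventional myosin of inner ear hair cells, was the remaining gene of the 5. It had 67, 84, 78, 93 and 247 fragments (log2 difference 1.64, interval 1.246 to 2.05), spread over 164 cells of the highest quintile, and did not depend on the deepest cell (1.65 without it). It did depend on the mitochondrial copy in its intron. Less the fragments on that copy it had 67, 83, 75, 84 and 71 fragments, a difference of -0.16 (-0.66 to 0.35), and it would not have reached the minimum of 300.

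The 5 lowest genes differed less and were not carried by 1 cell. Gsc, the homeobox gene Goosecoid at chr12:104471209-104473330, had 180, 159, 159, 172 and 132 fragments, or 26.9, 21.1, 21.7, 22.3 and 16.7 CPM (log2 difference -0.69, interval -1.02 to -0.36). Tmem221 had 177, 148, 149, 186 and 137 fragments (-0.61), Tpp1, a lysosomal peptidase, 178, 162, 183, 174 and 143 (-0.56), Lgalsl from 167 in the lowest to 136 in the highest quintile (-0.54, or -0.17 with thinned cells, short of the fold) and Itpripl2 181, 154, 168, 180 and 148 (-0.53). Only Lgalsl had fewer fragments in each quintile than in the one before. In CPM, the highest quintile was the lowest of the 5 groups in all 5 genes.

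**Figure D4:**
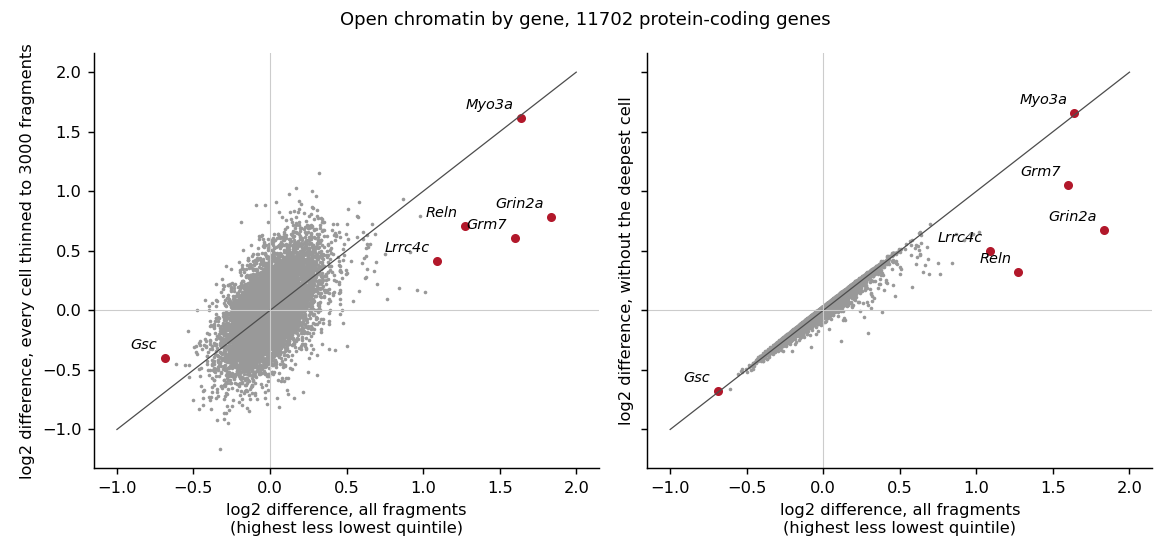
Each point is 1 of 11702 protein-coding genes, with the log2 difference in open chromatin (highest less lowest quintile) from all fragments on the x axis and, on the y axis, the same with every cell thinned to 3000 fragments (left) or without the deepest cell (right); the line marks equal values. Grin2a, Grm7, Reln and Lrrc4c drop toward 0 in both panels, whereas Myo3a stays at 1.62 and 1.65.

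In 5000 bp tiles the picture was alike. Of 28326 tiles with at least 100 fragments, 310 (1.09%) were higher and 349 (1.23%) lower in the highest quintile by a fold of 1.5 or more. The tile furthest apart, chr2:22585001-22590000, was the one over the copy in Myo3a, with 0, 1, 3, 11 and 175 fragments. It reached the minimum of 100 through the highest quintile alone, so that its place at the top is partly set by that filter. The copy on chromosome 1 had too few fragments for its tiles to be tested. The next 4 higher tiles had folds of about 2. They lay over Rbm39, a splicing factor (30, 52, 45, 72 and 73 fragments), 3110082J24Rik and Garem2 (44, 62, 47, 66 and 104), Hspa4, a heat shock protein (31, 57, 59, 67 and 73), and Sergef (33, 60, 64, 54 and 77). In the tiles over Rbm39, Hspa4 and Sergef the lowest quintile was below all other groups, also in CPM, and the whole genes differed by 0.04 in Rbm39, 0.33 in Garem2 (past the fold), 0.09 in Hspa4 and 0.28 in Sergef on the log2 scale. 3110082J24Rik, which had 61 and 120 fragments in the outer groups and so was under the minimum, differed by 0.73 (0.28 to 1.20). The 5 lowest tiles had folds of 0.417 to 0.497. Of these, 1 lay over Zfp704 (76, 49, 65, 46 and 39 fragments), 1 over Prkar1b, a regulatory subunit of protein kinase A (63, 54, 44, 39 and 37), and 3 over no gene. Of 11 tested tiles that overlapped any match to chrM, 2 were higher and 0 lower.

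Nuclear genes for mitochondrial proteins did not stand out from other genes. The lists named here were written with earlier results of these data known, and each is described by its counts beside all genes (median -0.02, 1.67% higher and 1.19% lower). Respiratory complex I, which takes electrons from NADH, had a median log2 difference of -0.03 over 26 tested genes, and complexes II to V, which end in ATP synthase, one of 0.00 over 30. None of these 56 genes was past the fold. The furthest apart were Ndufb6 (190, 195, 215, 220 and 182 fragments, -0.30) and Ndufb4 (336, 344, 319, 341 and 326, -0.28) in complex I, and Sdhc of complex II (-0.23) and Cox5b of complex IV (0.23) in the others. In Ndufb4 the highest quintile was below every other group in CPM, at 41.3 against 50.3 in the lowest.

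The machinery that copies and reads mtDNA showed no common direction. The 19 tested genes of mtDNA maintenance and transcription had a median of 0.00, with 10 above 0, and 0 past the fold. Tfam, which packs mtDNA and starts its transcription, had 194, 194, 247, 245 and 230 fragments, or 29.0 CPM in the lowest and 29.1 in the highest quintile (log2 difference 0.00, interval -0.28 to 0.29). Polg, the mtDNA polymerase, had 109 and 107 CPM (-0.03, -0.17 to 0.12). Twnk, the mtDNA helicase, had 181, 215, 203, 224 and 255 fragments (0.25, -0.03 to 0.54), the lowest quintile below and the highest above all others. Polrmt, the mitochondrial RNA polymerase, stood at -0.03, its partner Tfb2m at 0.01 and the single-strand binding protein Ssbp1 at -0.03. Slc25a33, a pyrimidine nucleotide carrier of the inner membrane, was furthest apart in this list (302, 436, 411, 372 and 437 fragments, 0.29, 0.08 to 0.51), with the lowest quintile below every other group.

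The 17 regulators of mitochondrial biogenesis had a median of 0.00, and 0 were past the fold. The coactivators Ppargc1a and Ppargc1b had differences of 0.13 (-0.17 to 0.42) and 0.14 (-0.04 to 0.33), and the former was -0.08 without the deepest cell. Nrf1, a transcription factor of respiratory genes, had 98.3 and 97.5 CPM (-0.01). Gabpa, the DNA-binding subunit of nuclear respiratory factor 2, had 320, 414, 382, 404 and 439 fragments (0.21, 0.00 to 0.43), and Esrra, an orphan nuclear receptor that works with the coactivators, had 671, 774, 715, 704 and 687 (-0.21, -0.36 to -0.05). The intervals of Gabpa and Esrra left out 0 in opposite directions, as those of 12.4% of all genes tested left out 0.

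Genes of mitochondrial shape and turnover had a median of -0.04 over 21 tested genes, with 0 past the fold. Opa1 and Mfn1, both of which fuse mitochondrial membranes, were furthest apart among the genes named for this list. Opa1 had 239, 251, 274, 270 and 352 fragments (0.32, 0.08 to 0.56), highest in the cells of at most 3% (0.44 against the lowest quintile) and not in those over 3% (0.08). Mfn1 had 150, 197, 154, 213 and 211 (0.25, -0.06 to 0.56). The 16 tested genes of the tricarboxylic acid cycle had a median of -0.09, with 3 of 16 above 0 against 5246 of 11702 genes in all, and of -0.05 with thinned cells. Pdha1, a subunit of the pyruvate dehydrogenase that feeds the cycle, was past the fold (227, 198, 200, 211 and 208 fragments, -0.37, -0.65 to -0.09, and -0.28 in cells of at most 3%), and Cs, citrate synthase, was not (-0.18). In Pdha1 the lowest quintile had 33.97 CPM and all other groups between 26.3 and 27.4. Of 21 glycolysis genes (median -0.06), Tpi1, triosephosphate isomerase, was higher past the fold (172, 223, 195, 218 and 256 fragments, 0.33, 0.05 to 0.62, and 0.31 in cells of at most 3%), and the lactate transporter Slc16a1 stood at 0.21. Of 16 genes of the mitochondrial unfolded protein and integrated stress responses (median -0.03), 0 were past the fold. The sensor kinase Eif2ak4 stood at -0.14 and the stress factor Ddit3 at -0.12.

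HSC genes differed little between the outer groups. Of 25 tested HSC identity genes (median -0.02), 0 were past the fold, and the furthest apart were Gprc5c (-0.26, -0.56 to 0.05) and the cell cycle inhibitor Cdkn1c (0.19, -0.03 to 0.40). Mecom, a transcription factor needed for HSC self-renewal, had 3092, 3306, 3307, 3325 and 3617 fragments (-0.02, -0.09 to 0.05), the factor Hlf had 143 and 145 CPM (0.02), the receptor Kit 114 and 111 (-0.04), Slamf1, which encodes CD150, 27.1 and 27.6 (0.03), and Sox4 47.6 and 48.2 (0.02). Vwf, the platelet adhesion protein, had 936, 1084, 1076, 1068 and 1256 fragments (0.18, 0.06 to 0.31). It was highest in the highest quintile, at 159 CPM against 138.6 to 146.7 in the others. Against the lowest quintile it stood at 0.22 in cells of at most 3% and at 0.12 in those over 3%. The study describes its reporter as only moderately selective for platelet-biased HSCs. The receptor Neo1 stood at -0.16 (-0.38 to 0.06). Ctla2a, Procr, Ly6a, Cd48 and Cd34 had fewer than 300 fragments in the outer groups together, and their intervals all included 0, with 17.1 and 20.6 CPM in Ctla2a and 15.4 and 15.9 in Cd34.

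Genes of resting and dividing cells were looked at for the same contrast. Among 26 tested proliferation genes (median -0.04), 0 were higher and 2 lower past the fold. These were Birc5, which encodes the mitotic protein survivin (280, 262, 274, 297 and 229 fragments, -0.53, -0.79 to -0.27), and Rrm1, a subunit of ribonucleotide reductase (241, 219, 238, 249 and 227, -0.33, or -0.29 without the deepest cell, short of the fold). In Birc5 the highest quintile lay below the other 4 groups. The 22 quiescence and activation genes had a median of 0.01 and 0 past the fold, with cyclin D1 (Ccnd1) at 0.29 (0.08 to 0.50) and the growth inhibitor Tsc2 at 0.27. The 28 immediate-early genes had a median of -0.05 and 0 past the fold, with Fos at -0.20 and the phosphatase Dusp6 at 0.21. The 18 apoptosis genes had a median of 0.04 (0.00 with thinned cells), and 0 past the fold, with the mitochondrial protease Htra2 at 0.18.

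The clone lists are the genes that the study found to differ between platelet-restricted (PLT-HSC) and multi-lineage (MUL-HSC) clones of other mice. Of 45 tested PLT genes 1 was higher past the fold, Syt11 (131, 217, 159, 192 and 212 fragments, 0.45), followed by Dffb (0.30). Of 39 tested MUL genes 1 was higher, Hyal3 (0.33, named only because it completes the count), and 2 were lower, the vitamin D hydroxylase Cyp2r1 (-0.43) and the replication fork protein Tipin (-0.42). With thinned cells both fell short of the fold (-0.29 and -0.30). Fragments on PLT over those on MUL genes gave ratios of 1.51, 1.51, 1.49, 1.45 and 1.49, with 1.48 in cells of at most 3% and 1.496 in those over 3%. The log2 difference between the outer quintiles was -0.02 (-0.05 to 0.00).

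**Figure D5:**
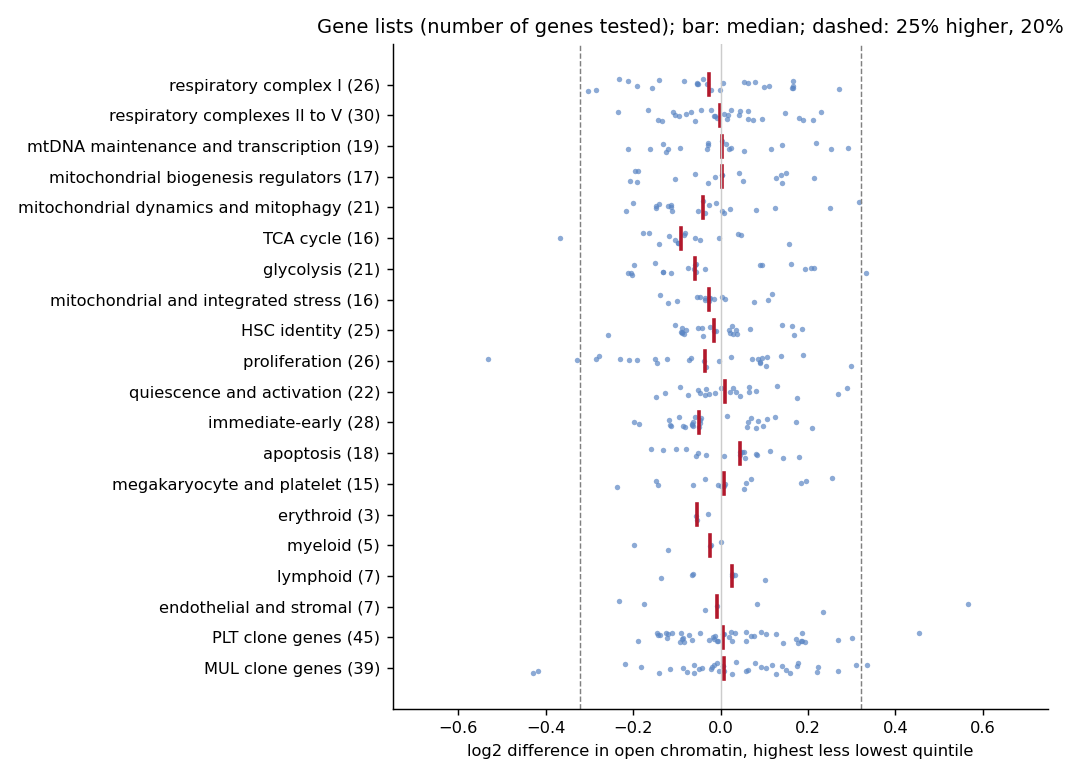
Each point is 1 tested gene of a list, placed by its log2 difference in open chromatin (highest less lowest quintile), with the median of each list as a red bar, dashed lines at 25% higher and 20% lower and the number of genes tested in brackets. Medians lie between -0.09 and 0.04, and 9 genes lie beyond the lines.

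Summed markers of other blood and marrow cells differed between the outer groups by no more than their counting error, whereas single genes of the longer lists went beyond it. In windows of 1000 bp to either side of gene starts, where the median gene had 8.67 CPM, the 11 HSC markers summed to 249, 242, 244, 236 and 252 CPM from the lowest to the highest quintile, and to 270 in cells over 3%. Prdm16 (54.1), Hlf (49.7), Kit (43.1) and Meis1 (37.0) were the highest over all cells, whereas the start of the longest annotated Mecom transcript had 0.296 and Ly6a had 1.40. The 8 myeloid markers summed to 12.9 to 16.9 CPM in the 5 groups, the 6 erythroid to 30.9 to 34.05, the 9 lymphoid to 21.3 to 25.2, the 5 megakaryocyte to 96.5 to 105 and the 6 endothelial and stromal to 37.8 to 44.6. No marker was at 0 over all cells pooled, but Ctsg, S100a9 and Hba-a1 were at 0 in the lowest quintile, where the highest had 0.127 CPM in each. All 6 counting intervals of the summed log2 differences included 0. Over whole genes and the longer lists, 0 of 15 megakaryocyte and platelet genes, 0 of 3 erythroid, 0 of 5 myeloid and 0 of 7 lymphoid genes were past the fold, and 1 of 7 endothelial and stromal genes was. That gene was Col1a1, the bone collagen (208, 282, 289, 265 and 364 fragments, 0.57, 0.32 to 0.82). Among the furthest apart in the others were Selp (0.26, 0.05 to 0.46) and Rab27b (-0.24, -0.45 to -0.03), Car2 (-0.06) and Klf1 (-0.05), Irf8 (-0.20) and Cebpa (-0.12), and Cd3d (-0.14) and Bcl11b (0.10). In the list of Col1a1, Sp7 stood at 0.23, Cxcl12 at -0.23 and Kdr at -0.18, the last 2 named after their values were seen, and the list median was -0.01 with 3 of 7 genes above 0.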

How the data were processed

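ATAC and RNA libraries of 1 HSC preparation were used, 1 sample each. The authors ran Cell Ranger ARC 2.0.2 on mm10 and deposited counts per barcode and the positions of all fragments, which are not normalized. Counts of RNA per gene and fragments on chrM were not analysed here, and the antibody tags were not used. Members and gene lists were chosen with earlier results of these data known. Lists held 565 symbols, of which 557 matched GENCODE vM21 (5 through a synonym). Named genes were the 5 highest and 5 lowest, the 2 furthest apart in each list, a fixed set of mitochondrial and HSC genes, and genes under the 5 tiles furthest apart in each direction; 1 gene that the rule names is not reported here. Copies of chrM were found with blastn 2.17.0 (e-value limit 1e-10) and sequences read from GRCm38. Doublets were not removed, and the methods name no such step. Depth was 18391 or more raw read pairs per cell, and 6682991 to 7900287 nuclear fragments per group. Python 3.11.15, numpy 2.4.6, pandas 2.3.3, scipy 1.17.1 and matplotlib 3.10.9 were used, and the gene step was tested on simulated data. Alternatives changed the groups, depth, windows and minimums.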

Additional observations from a re-analysis of the deposited data

Results flagged for a closer look

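Barcodes that were not called cells enter no comparison above, and their reads held more mtDNA than those of the cells. Pooled over 601292 such barcodes, 4.98% of raw ATAC read pairs were mitochondrial, against 1.44% over the 3108 ranked cells and 0.893% over the 649 called cells with too few fragments in peaks. Of the 219 cells over 3% (median 11.2%), 197 had a share over 5%, and all other ranked cells had at most 3%. What part free mtDNA has in the share of a cell was not tested.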

How the results depend on the processing

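Of 119 values of 15 main results under alternatives, 69 stayed within their limits. Those that did not are given with their main value. The ratio of UMIs (1.10) was 1.02 with quintiles made within depth deciles and 0.949 in cells over 3%, that of genes (1.07) was 1.02, 0.981 and, at 3500 to 4500 UMIs, 1.00, just under equality, and that of fragments (1.14) was 1.07 between cells above and below the median share, 0.965 within depth deciles and 1.23 in all called cells. Percentage points of duplicates (-1.61) were -4.14 between outer deciles, -0.658 above against below the median, -0.692 at most 3% and -5.37 over 3%. Those of low mapping quality (1.62) were 5.41, 0.648, 0.878 and 6.93, and 1.23 within depth deciles. Those of intergenic RNA (-0.70) were -2.34 between deciles, 0.410 at most 3% and -3.94 over 3%.

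Genes higher (195 of 11702) were 92 at gene starts, 43 with thinned cells, 120 within depth deciles and 687 or 8 at minimums of 100 or 1000 fragments. Genes lower (139) were 59 with thinned cells, 227 between deciles, 321 over 3% and 442 or 2 at those minimums. List genes higher (4 of 398) were 2 of 285 at gene starts, 9 of 397 within depth deciles, 7 of 370 at most 3% and 15 of 492 or 0 of 170 at those minimums. List genes lower (5) were 8 of 285 at gene starts (139 of 7248 among all genes), 2 of 138 with thinned cells (59 of 3270), 13 of 333 over 3% (321 of 9368) and 11 or 0. Tiles higher (310) and lower (349) were 77 and 70 with thinned cells, 4941 and 4784 at a minimum of 30 and 6 and 6 at 300. The PLT to MUL difference (-0.02) was 0.0235 at gene starts. The chromosome 1 copy (9.62) had 13.4 CPM with thinned cells and 17.2 in the highest decile, and the chromosome 2 copy (22.3) had 39.0 there. Fewer cells, fragments or genes enter under thinning, deciles and higher minimums, and other causes were not tested. Of 614 values of 77 named genes, 69 left their counting interval and 67 had the opposite sign. Of genes past the fold, 4 values turned: Grin2a -0.0175, Reln -0.00263 and Lrrc4c -0.28 within depth deciles, and Myo3a -0.56 at gene starts, on 4 against 5 fragments. Grm7 (0 against 1) and Lrrc4c (0 against 6) gave no value there. The alternatives at or over 3%, at 3500 to 4500 UMIs and without the deepest cell were chosen after seeing the data.

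No paired analysis was possible because each library has 1 replicate. With 1 preparation, no value shows how far these differences would vary between mice, and counts of genes past a fold follow the fragments behind each gene.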

Other observations

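Fragments more than 500000 bp from any protein-coding gene, an index of diffuse signal, made up 53.6, 61.9, 64.4, 62.6 and 73.6 per 10000 pooled fragments from the lowest to the highest quintile, and 65.2 in the highest quintile without its deepest cell. Medians over cells were 47.8, 49.1, 48.1, 49.1 and 49.8 per 10000.

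Nucleosome signal and antisense RNA also differed between the cells over 3% and the other cells of the highest quintile. The medians were 0.680 against 0.709 for the nucleosome signal and 24.7% against 21.8% for antisense RNA reads, with 0.695 and 22.0% in the lowest quintile.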
